A study of Mus musculus with 6 samples.

Results

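The genes described here act in mismatch repair, base excision repair, nucleotide excision repair, end joining of broken chromosomes and translesion synthesis. They were chosen by gene symbol, and all 40 listed symbols were found among the 55487 gene rows of the table: 5 of mismatch repair, 13 of base excision, 11 of nucleotide excision, 7 of end joining and 4 of translesion synthesis. Every member passed the filter on low values, a mean of at least 10 normalized reads over the libraries. RNA was sequenced from YFP-positive cells sorted out of the mouse subventricular zone, the neurogenic tissue beside the lateral ventricles of the adult brain. There were 6 libraries, 3 per genotype, each from several pooled mice on a mixed C57BL/6;Sv/129;FVB/N background. The heterozygous group was E2F1(+/-);E2F3(F/+) and the knockout group E2F1(-/-);E2F3(F/F), where F is a floxed allele that Cre can delete. Mice of both groups carried NestinCreERT2, a tamoxifen-activated Cre under the promoter of the neural stem cell gene Nestin, and the R26 EYFP reporter. Both were given tamoxifen at 200 mg/kg per day for 5 days from an age of 6 to 10 weeks, and the tissue was dissected 10 days later. The heterozygous mice are therefore not wild type, and the Cre marks Nestin-expressing cells and their descendants, so each library is a mixture of stages. E2f1 and E2f3 differ together between the groups and their effects cannot be told apart.

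Mismatch repair finds bases mispaired during replication: MutS complexes of MSH proteins recognise the mismatch and MutL complexes of MLH and PMS proteins direct removal of the new strand. In base excision repair a DNA glycosylase cuts out a damaged base, the endonuclease APE1 opens the strand, and PARP enzymes, XRCC1, DNA polymerase beta and a ligase close the gap. Nucleotide excision repair removes bulky lesions in a short oligonucleotide, end joining rejoins broken ends around the Ku proteins, and translesion polymerases copy past damaged bases. Neural stem cells of this tissue divide rarely, whereas their transit-amplifying progeny divide rapidly, and repair that is coupled to replication is most used in dividing cells. E2F1 and E2F3 are transcription factors that activate genes of DNA replication at entry into S phase.

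E2f1, the gene lost in all knockout cells by label, stood at 1152, 1388 and 1029.5 normalized reads in heterozygous A, B and C and at 375, 483 and 516 in knockout A, B and C, a log2 difference of -1.38 ± 0.22 (SE; limma adjusted p = 0.00559). E2f1 reads thus remained in every knockout library, and where in the gene they lie was not examined. E2f3 stood at 293, 205 and 253 against 324, 231 and 245, with a limma adjusted p = 0.845, but reads over a whole gene do not check the deletion of a floxed part. Whole reads recovered per library ranged from 19798675 to 25982361. In log2 values over all genes tested, knockout C correlated with heterozygous A, B and C at 0.929, 0.913 and 0.944. It correlated with knockout A and B at 0.909 and 0.954. Knockout C was thus closer to each heterozygous library than knockout A or B was. Markers of other cells in the sort moved between the groups as well. All 15 neuroblast markers fell (summed 80261 to 136776 normalized reads in heterozygous and 15828 to 20360.4 in knockout libraries), and so did all 18 mitosis genes (42671 to 73454 against 7264 to 13281). Of 13 ependymal markers 9 rose (13667 to 15924 against 20092 to 79081), of 14 quiescent stem cell and astrocyte markers 2 (423128 to 611450.2 against 495862 to 904454), and of 13 endothelial and mural markers 1 (12989 to 22179 against 15016 to 59792). Those are limma calls, and every estimate in these lists was positive. In the same order edgeR called 11, 2 and 1 and DESeq2 12, 7 and 6. At an unadjusted limma p under 0.05 there were 12, 7 and 3. Of 12 microglial and blood markers limma and edgeR called none, and at an unadjusted p under 0.05 there were 0 (2953 to 11097 against 4282 to 15869.9). Of 12 oligodendrocyte markers these tools called none and DESeq2 1, and at an unadjusted p under 0.05 there were 4 (49820.0 to 72661 against 77703 to 96607). Of 7 mature neuron genes tested 4 fell and 1 rose (2755 to 3761 against 2862 to 3369.6 over the 9 listed). Slc17a7 and Drd1 of that list were at 0 in at least 1 library each. The part of these markers in the differences of the repair genes was not tested. In such sorted bulk samples fewer cells of a type and less RNA per cell cannot be told apart.

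Of the 40 repair genes 3 fell and 2 rose in knockout libraries (limma, Benjamini-Hochberg adjusted p under 0.05 over 18227 genes tested). Neil3, Parp1 and Apex1 fell, Nthl1 and Polk rose, and 4 of these 5 genes belong to base excision repair. That pathway holds 13 of the 40 members, so 30.8% of it was called, against 15.8% of all genes tested. Over all 40 members the share called, 12.5%, lay below that 15.8%. The shares lower (7.5%) and higher (5.0%) lay below 8.59% and 7.23%. Knockout and heterozygous values did not overlap for 16 members (40%), against 38.7% of all genes tested: 13 were lower (20.2% of all genes) and 3 higher (18.5% of all genes) in knockout libraries. With knockout B, heterozygous A or heterozygous B left out the count of genes that fell was 1 (Neil3), and with knockout C left out it was 6. With any library but knockout C left out no gene rose. The median log2 difference over the 40 genes was -0.33, and 27 differences were negative. Over all genes tested the median was 0.05, with 8703 of 18227 negative. At an unadjusted p under 0.05 there were 11 lower and 3 higher members of 40, against 16.5% and 16.9% of all genes tested, 33.4% in either direction. edgeR called 4 members lower and 2 higher of 40, against 8.25% and 7.78% of its genes, 16% in all. DESeq2 called 7 lower and 2 higher (17.5% and 5.0%), against 10.4% and 11.3% of its genes, 21.6% in all. The authors' deposited table likewise gives 7 as lower and 2 as higher. There 6.83% of all rows with an adjusted p were lower and 7.44% higher, or 11.8% and 12.9% of those with a mean of at least 10, the filter that every member passed. The 4 genes called in the authors' deposited table beside the 5 named above were Msh6, Ercc1, Xrcc5 and Xrcc6. At an adjusted p under 0.05 the share of members in either direction was thus near or under the background in all 3 fits. The share lower was above it by edgeR and DESeq2 and under it by limma. In limma at an unadjusted p, and by lack of overlap, more members were lower than the background (11 and 13 of 40, against 16.5% and 20.2%). Fewer were higher (3 and 3 of 40, against 16.9% and 18.5%). No test of the members as a group was made, and the account below goes gene by gene.

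**Figure D1:**
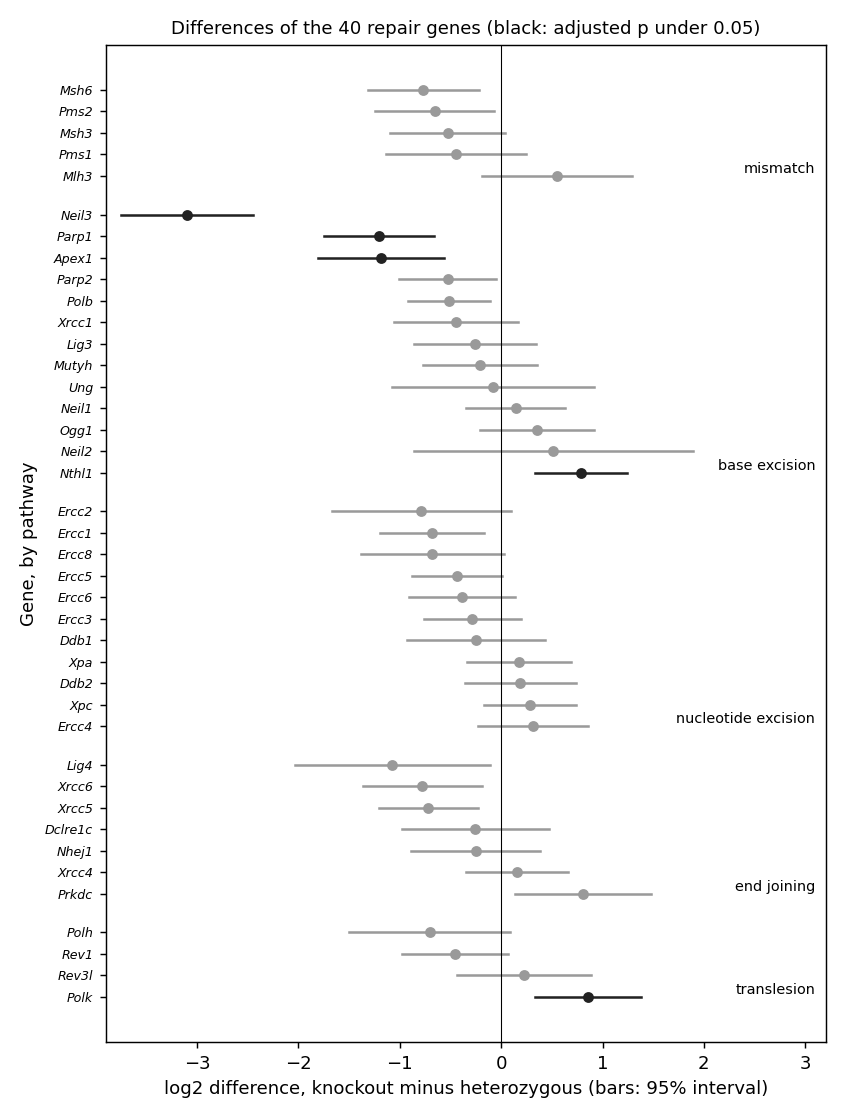
The 40 repair genes on the y axis, grouped by pathway, with their log2 difference (knockout minus heterozygous, limma, n = 3 libraries per genotype) on the x axis; points are estimates and bars 95% intervals, black where the adjusted p is under 0.05. Neil3 lies at -3.10, the next lowest genes at -1.20 (Parp1) and -1.18 (Apex1), and Nthl1 and Polk at 0.79 and 0.86.

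Promoter letters were read from RefSeq windows on GRCm38.p6 that run from 250 bases before to 50 after a gene's start, each 300 bases long. Windows were found for 33 of the 40 genes, and none for Neil2, Polb, Xpc, Ercc3, Ddb2, Prkdc and Rev3l. The letters searched on both strands were those of the E2F element, TTTCCCGC, TTTGGCGC, TTTCGCGC and TTTGCCGC, and of the cell cycle gene homology region (CHR), TTTGAA, an element common in promoters of mitotic genes. E2F letters were found in 4 of 33 repair genes (12.1%) and in 704 of 27025 genes with a window (2.60%). Those 4 are Msh3, Msh6, Nthl1 and Xrcc6, and their windows are shown with the genes below. CHR letters were found in 1 repair gene, Ercc5 (3.03%), against 20.2% of all genes. Among the comparison lists, E2F letters were found in 4 of 5 MCM helicase genes, 3 of 25 recombination and Fanconi genes and 1 of 15 mitosis genes, and CHR letters in 11 of those 15 mitosis genes. A match is a description of these letters and not of binding.

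Of the 5 mismatch repair genes none passed limma or edgeR, DESeq2 called 1, and 2 were below an unadjusted p of 0.05 (33.4% of all genes tested were). Msh6, whose product recognises single mismatches, stood at 2867, 1831 and 1819 normalized reads in heterozygous A, B and C and at 1257, 1005 and 1530.0 in knockout A, B and C. The groups did not overlap, and the log2 difference was -0.77 ± 0.24 (SE; 95% interval -1.32 to -0.22, limma adjusted p = 0.0601). DESeq2 called Msh6 on the same reads, as did limma when only genes with a mean of at least 50 were tested or when knockout C was left out. Msh3, whose product recognises larger loops, stood at 998, 1215 and 726 against 602, 588 and 829.8. Knockout C lay above heterozygous C for Msh3, so the groups overlapped (log2 difference -0.53 ± 0.25 SE, limma adjusted p = 0.176). Per kilobase of annotated exon Msh6 had 499.9 ± 138 and Msh3 87.0 ± 21.8 normalized reads in heterozygous libraries (SD, n = 3).

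The windows of both MutS genes hold E2F letters and are shown for that reason, 5′ to 3′ on the strand of the gene, with those letters in capitals. The Msh6 window (chr17:87974800-87975099, plus strand) has TTTCCCGC beginning 16 bases after the start. In the Msh3 window (chr13:92354954-92355253, minus strand) TTTGGCGC begins 202 bases before the start, and TTTCGCGC on the opposite strand overlaps it from 198 bases before the start.
Msh6: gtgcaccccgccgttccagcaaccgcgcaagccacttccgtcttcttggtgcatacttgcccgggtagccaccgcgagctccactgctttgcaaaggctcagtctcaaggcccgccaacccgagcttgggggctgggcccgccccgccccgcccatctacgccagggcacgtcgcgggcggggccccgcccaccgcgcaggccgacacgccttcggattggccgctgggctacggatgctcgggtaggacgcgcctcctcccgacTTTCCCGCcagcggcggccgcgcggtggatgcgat
Msh3: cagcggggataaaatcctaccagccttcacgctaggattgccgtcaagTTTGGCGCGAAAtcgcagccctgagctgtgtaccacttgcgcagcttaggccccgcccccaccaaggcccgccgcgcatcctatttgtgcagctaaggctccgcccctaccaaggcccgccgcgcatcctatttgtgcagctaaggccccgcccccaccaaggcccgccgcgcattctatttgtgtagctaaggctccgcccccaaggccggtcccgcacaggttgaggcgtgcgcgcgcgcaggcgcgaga

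Among the MutL genes Pms2, the endonuclease subunit of the main complex, stood at 876, 789 and 533 against 395, 422 and 564. Mlh3, whose product acts mainly in meiosis, stood at 493, 226 and 324 against 359.8, 589 and 539. The Pms2 groups overlapped only through heterozygous C and knockout C, the Mlh3 groups also overlapped, and neither gene was called (limma adjusted p = 0.114 and 0.269). Pms1 lay between 372 and 404 in heterozygous and between 185 and 398 in knockout libraries (limma adjusted p = 0.342).

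Base excision repair held the largest change of the 40 genes. Neil3 (ENSMUSG00000039396, GRCm38 chromosome 8, 53586867 to 53639065, minus strand) encodes a glycosylase of oxidised bases that also unhooks cross-links at replication forks. It stood at 1212, 1339 and 846 normalized reads in heterozygous A, B and C and at 139, 96.2 and 159.9 in knockout A, B and C. All knockout values were far below the lowest heterozygous value, and Neil3 fell 8.56-fold (log2 difference -3.10 ± 0.29 SE, 95% interval -3.75 to -2.45, limma adjusted p = 0.000886). It was called under each of 15 alternatives, with log2 differences of -3.29 to -2.89. The median of the 18 mitosis genes was -2.67, and their range of -3.43 to -2.22 contained the Neil3 value. Among those genes Mki67, the proliferation marker, fell 10.8-fold. Ube2c, which helps to mark mitotic cyclins for destruction, fell 6.59-fold.

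The other 2 NEIL glycosylase genes were not called, and the intervals of both lay above the Neil3 value. Neil1, a glycosylase of oxidised bases, stood at 435, 447 and 416 normalized reads against 471, 429 and 539. Its log2 difference was 0.14 ± 0.22 (SE), with a 95% interval of -0.34 to 0.63. Neil2, a glycosylase linked to repair of transcribed genes, had the lowest level per kilobase of all members and stood at 13.1, 24.5 and 25.0 against 51.6, 27.6 and 17.2, with an interval of -0.86 to 1.90. The Neil1 and Neil2 groups overlapped. Per kilobase of annotated exon Neil3 and Neil1 were close in heterozygous libraries (204 ± 46.1 and 231 ± 8.36 normalized reads, SD, n = 3), whereas in knockout libraries Neil3 had 23.7 ± 5.85 and Neil1 256 ± 29.7.

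The Neil3 window (chr8:53639016-53639315, minus strand) is printed because this gene changed most. It held neither the E2F nor the CHR letters and so carries no capitals, which says only that these letters are not in these 300 bases. The window of Nthl1 (chr17:24632432-24632731, plus strand), the glycosylase gene that rose, has TTTCGCGC in capitals, beginning 132 bases before the start.
Neil3: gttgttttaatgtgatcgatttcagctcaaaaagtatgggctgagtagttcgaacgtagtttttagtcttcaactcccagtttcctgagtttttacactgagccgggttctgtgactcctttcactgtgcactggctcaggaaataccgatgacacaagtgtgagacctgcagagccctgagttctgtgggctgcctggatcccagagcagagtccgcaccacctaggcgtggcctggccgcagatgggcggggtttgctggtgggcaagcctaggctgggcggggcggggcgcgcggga
Nthl1: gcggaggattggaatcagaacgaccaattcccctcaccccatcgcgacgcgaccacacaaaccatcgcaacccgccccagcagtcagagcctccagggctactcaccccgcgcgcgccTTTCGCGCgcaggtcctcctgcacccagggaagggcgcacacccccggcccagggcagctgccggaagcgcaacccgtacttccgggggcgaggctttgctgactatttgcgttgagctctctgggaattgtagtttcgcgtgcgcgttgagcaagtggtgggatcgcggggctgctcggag

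Nthl1 (ENSMUSG00000041429, GRCm38 chromosome 17, 24632680 to 24638837, plus strand) encodes a glycosylase of oxidised pyrimidines. It stood at 451, 479 and 457 normalized reads in heterozygous and 897, 777 and 735 in knockout A, B and C. The groups did not overlap, the heterozygous values lay close together, and Nthl1 rose 1.73-fold (log2 difference 0.79 ± 0.20 SE, limma adjusted p = 0.0305). The highest knockout value was that of library A, which also had the highest ependymal sum (79081) and the highest endothelial and mural sum (59792), and the part of those cells in the difference was not tested. With any library but knockout C left out the call was lost, at adjusted p of 0.0660 to 0.124, although the log2 difference stayed between 0.71 and 0.85 in all 6 cases. Of the remaining glycosylase genes, Ung (uracil), Ogg1 (8-oxoguanine) and Mutyh (adenine opposite 8-oxoguanine) had log2 differences of -0.08, 0.35 and -0.21, and none was called (limma adjusted p of 0.347 to 0.914). Ung varied most within groups, from 247 to 731 in heterozygous and from 261 to 654 in knockout libraries.

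Downstream of the glycosylases Apex1 and Parp1 fell, and the other 4 members of these steps were not called. Apex1 (ENSMUSG00000035960, GRCm38 chromosome 14, 50924968 to 50927139, plus strand) encodes APE1, the main endonuclease at sites that have lost a base. It stood at 644, 1017 and 584 normalized reads against 268, 314 and 386, without overlap, and fell 2.27-fold (log2 difference -1.18 ± 0.28 SE, limma adjusted p = 0.0231). Of its annotated exon bases 61.7% lie within exons of Pip4p1 on the opposite strand. Pip4p1 stood at 2929, 3883 and 2711 against 2504, 2840.4 and 3523 (log2 difference -0.10 ± 0.21 SE, limma adjusted p = 0.770). Strand was not marked by this library kit, so reads of the shared bases cannot be assigned to either gene and the Apex1 level is uncertain. The same limit applies, over a smaller share of exon bases, to Rev1 (26.6% shared with Eif5b), Lig3 (25.1% with Rffl) and Ddb2 (23.8% with Acp2). It also applies to Ercc2 (24.6% with Gm26852 and 17.8% with Klc3).

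Parp1 (ENSMUSG00000026496, GRCm38 chromosome 1, 180568924 to 180601254, plus strand) encodes the enzyme that binds strand breaks and marks them with poly(ADP-ribose). It stood at 4431, 5426 and 3309 normalized reads against 1484, 1857 and 2365, again without overlap. Parp1 fell 2.30-fold (log2 difference -1.20 ± 0.24 SE, 95% interval -1.75 to -0.66, limma adjusted p = 0.0142). With knockout B, heterozygous A or heterozygous B left out neither Parp1 (limma adjusted p of 0.0631, 0.0598 and 0.0699) nor Apex1 (0.0903, 0.0650 and 0.0862) passed. Its paralogue Parp2 stood at 2374, 3551 and 2413 against 1769, 1739 and 2199. The Parp2 groups did not overlap either, but the log2 difference of -0.53 ± 0.21 (SE) had an adjusted p = 0.117. Per kilobase of annotated exon the PARP genes had similar levels in heterozygous libraries (829 ± 200.1 for Parp1 and 766 ± 184 for Parp2, SD, n = 3), against 359 ± 83.5 and 524 ± 70.9 in knockout libraries.

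The gap-filling and sealing genes were not called. Polb, the repair polymerase, stood at 1511, 1673 and 1513 normalized reads against 1233, 1032 and 1029, without overlap, and had an adjusted p = 0.0786 (log2 difference -0.52 ± 0.18 SE). Xrcc1, the scaffold protein, ranged from 997 to 1995 and from 875 to 1034, and its spread in heterozygous libraries came from library B. Lig3, the ligase that XRCC1 holds, stood at 1402, 1046 and 719 against 758, 797 and 1025, with overlapping groups (limma adjusted p = 0.532). Both Xrcc1 and Lig3 had negative estimates, with 95% intervals of -1.05 to 0.16 and -0.86 to 0.34.

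**Figure D2:**
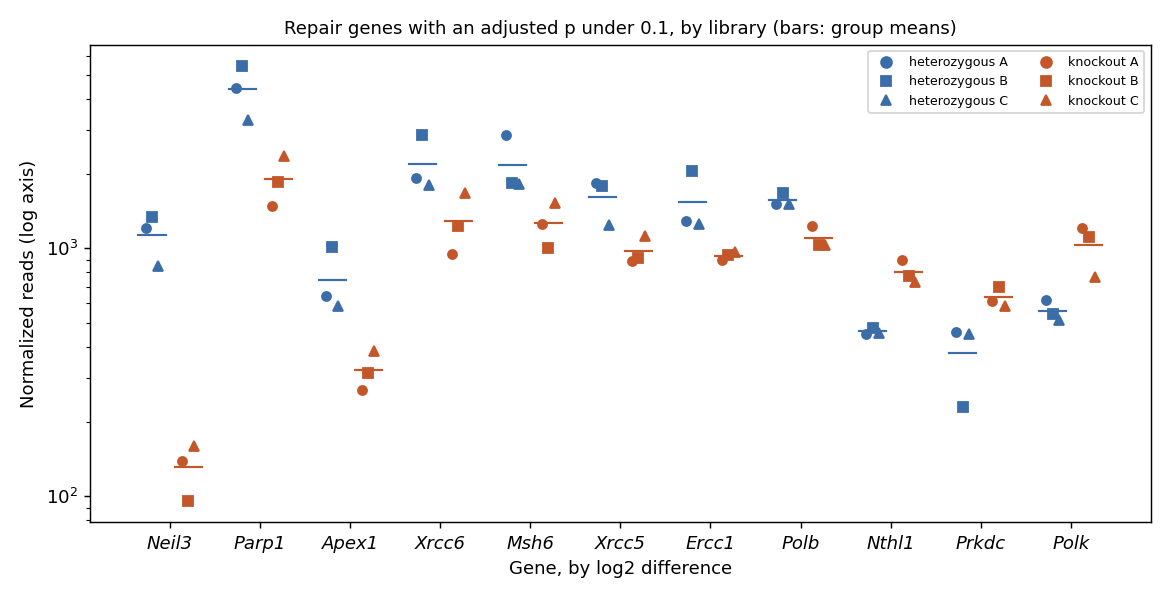
Normalized reads per library (y axis, log scale) for the 11 repair genes with an adjusted p under 0.1, ordered by log2 difference; circles, squares and triangles are libraries A, B and C, blue heterozygous and orange knockout, and bars are group means. The groups do not overlap for any of these 11 genes, and the gap is widest for Neil3 (846 or more against 159.9 or less).

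Limma and edgeR called none of the 11 nucleotide excision genes, DESeq2 called 1, and 1 was below an unadjusted p of 0.05 in limma, against 33.4% of all genes tested. That gene in both cases was Ercc1, part of the nuclease that cuts on the 5′ side of a lesion. Ercc1 stood at 1286, 2062 and 1258 normalized reads in heterozygous and 897, 937 and 963 in knockout libraries, a log2 difference of -0.68 ± 0.23 (SE, limma adjusted p = 0.0703). The knockout values lay close together and below every heterozygous value. The same held for Ercc2 and Ercc3, the helicases of TFIIH, and Ercc5, the nuclease of the 3′ side, with adjusted p of 0.158 to 0.382. Ercc4, the catalytic partner of ERCC1, had a log2 difference of 0.32 ± 0.24 (SE, adjusted p = 0.386), so the estimates for both subunits of this nuclease differed in sign.

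Damage recognition genes of the pathway were not called. Xpc, which senses distortion of the helix, and Xpa, which verifies the lesion, had log2 differences of 0.28 and 0.18 (limma adjusted p = 0.356 and 0.621). Ddb1, an adaptor of CUL4 ubiquitin ligases that serves many substrates besides damaged DNA, had the highest level per kilobase of all members (1055 ± 176 in heterozygous libraries, SD, n = 3) and stood at 7946, 6635 and 5706 normalized reads against 3452, 6283 and 8325. The knockout values of Ddb1 spanned the whole heterozygous range, with knockout A lowest and knockout C highest of all 6 libraries. Ddb2, which binds ultraviolet lesions, stood at 397, 569 and 605 against 534, 690.1 and 550.5. Of the genes for stalled transcription, Ercc6 (CSB) stood at 966, 623 and 839.6 against 679, 527 and 633, and Ercc8 (CSA) at 479, 628 and 282 against 249, 288 and 286. Ercc6 and Ercc8 overlapped between the groups, with adjusted p of 0.274 and 0.164.

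No end joining gene of the 7 passed limma, edgeR called 1 and DESeq2 2. At an unadjusted p under 0.05 there were 4, against 33.4% of all genes tested. The Ku genes lay nearest to the threshold. Xrcc5 (Ku80) stood at 1831, 1781 and 1245 normalized reads in heterozygous and 886, 917 and 1124 in knockout libraries. Xrcc6 (Ku70) stood at 1928, 2857 and 1803 against 952, 1235 and 1673. For both genes the groups did not overlap and knockout values were lower, with log2 differences of -0.72 ± 0.22 and -0.78 ± 0.26 (SE, limma adjusted p = 0.0516 and 0.0701). Xrcc5 was called by edgeR (log2 difference -0.70, adjusted p = 0.0442) and by DESeq2, and Xrcc6 by DESeq2. The authors' deposited table also called both (adjusted p = 0.0257 and 0.0335).

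The window of Xrcc6 (chr15:82016119-82016418, plus strand) is shown as the end joining gene with E2F letters, here TTTCCCGC on the opposite strand, in capitals, beginning 46 bases before the start.
Xrcc6: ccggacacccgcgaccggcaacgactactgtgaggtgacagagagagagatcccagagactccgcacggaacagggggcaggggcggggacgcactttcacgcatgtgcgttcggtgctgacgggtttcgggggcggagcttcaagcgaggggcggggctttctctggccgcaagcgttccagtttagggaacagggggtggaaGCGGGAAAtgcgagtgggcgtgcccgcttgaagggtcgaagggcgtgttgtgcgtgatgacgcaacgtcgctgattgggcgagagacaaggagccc

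The enzymes that act after Ku went in different directions by estimate. Prkdc, the catalytic subunit of DNA-PK, stood at 460.0, 229 and 451 normalized reads against 616, 702 and 587, higher in every knockout library, but with an adjusted p = 0.0946 (log2 difference 0.80 ± 0.30 SE). Lig4, the ligase of this pathway, stood at 252, 313 and 201 against 105, 222 and 71.8, and overlapped through knockout B (log2 difference -1.07 ± 0.43 SE, limma adjusted p = 0.114). Xrcc4 and Nhej1, which hold Lig4 at the break, and Dclre1c (Artemis), which trims ends, had log2 differences of 0.15, -0.25 and -0.25 with overlapping groups (adjusted p of 0.567 to 0.662). The genes of the DNA-PK complex thus had estimates of both signs, positive for Prkdc and negative for Xrcc5 and Xrcc6.

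Among the 4 translesion genes Polk rose and none fell. Polk (ENSMUSG00000021668, GRCm38 chromosome 13, 96480690 to 96542579, minus strand) encodes DNA polymerase kappa, which extends past bulky adducts. It stood at 621, 544 and 513 normalized reads in heterozygous and 1208, 1111 and 769 in knockout A, B and C. The groups did not overlap, and Polk rose 1.81-fold (log2 difference 0.86 ± 0.23 SE, 95% interval 0.34 to 1.38, limma adjusted p = 0.0366). The order of the knockout libraries, A highest and C lowest, was that of the ependymal sums (79081, 49244 and 20092) and of the endothelial and mural sums (59792, 36125 and 15016). Among heterozygous A, B and C the endothelial and mural sums ran in the opposite order to Polk (12989, 15253 and 22179). Knockout C, with Polk above every heterozygous library, had an endothelial and mural sum within that range. The ependymal sums of heterozygous A, B and C were 15924, 13667 and 14254, highest in A as for Polk. The ependymal sum of knockout C lay above all of these. The part of those cells in the Polk difference was not tested. With any library but knockout C left out the call was lost, at adjusted p of 0.0802 to 0.156, and the log2 difference stayed between 0.73 and 1.05 in all 6 cases.

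The other translesion genes were not called. Polh, the polymerase that copies past ultraviolet lesions, stood at 105, 108 and 149 normalized reads against 68.0, 68.6 and 82.0, lower in every knockout library, with an adjusted p = 0.193. Rev1, the scaffold that exchanges polymerases, stood at 1380.1, 1345 and 1122 against 722, 914 and 1223. Rev3l, the catalytic subunit of polymerase zeta, stood at 819, 419 and 868 against 898, 694 and 766. Rev1 and Rev3l overlapped between the groups, with log2 differences of -0.46 ± 0.23 and 0.23 ± 0.29 (SE, limma adjusted p = 0.199 and 0.623).

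Ratios of paired members within a library do not depend on how libraries are scaled, and 11 pairs of related genes were compared. With 3 libraries against 3 the smallest two-sided p of an exact permutation test is 0.1, so no pair could pass 0.05. The groups separated completely for 4 of 11 pairs (exact permutation p = 0.1, adjusted over the pairs 0.275 each). Among single genes the groups did not overlap for 38.7% of all tested, and no such share was determined for gene pairs. The log2 ratio of Neil3 to Neil1 was 1.48, 1.58 and 1.02 in heterozygous and -1.75, -2.15 and -1.75 in knockout A, B and C, positive in all heterozygous and negative in all knockout libraries. The ratio of Polh to Polk was -2.55, -2.32 and -1.78 against -4.13, -4.00 and -3.21. The Parp1 to Parp2 ratio was 0.90, 0.61 and 0.46 against -0.25, 0.09 and 0.10, and that of Pms2 to Mlh3 0.83, 1.80 and 0.72 against 0.13, -0.48 and 0.06. In all 4 pairs the first gene was lower relative to the second in every knockout library.

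The ratio of the Ku genes, Xrcc5 to Xrcc6, was by contrast nearly equal in both groups, -0.43 ± 0.32 in heterozygous and -0.37 ± 0.24 in knockout libraries (SD, n = 3), a difference of 0.06 (exact permutation p = 0.8). Msh6 to Msh3 differed by -0.24, Ercc6 to Ercc8 by 0.29, Neil2 to Neil1 by 0.37, Ddb2 to Ddb1 by 0.43, Rev1 to Rev3l by -0.68 and Lig4 to Lig3 by -0.82. These pairs overlapped between the groups (exact permutation p from 0.2 to 0.7), and with so few libraries a p of that size does not show equal ratios.

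**Figure D3:**
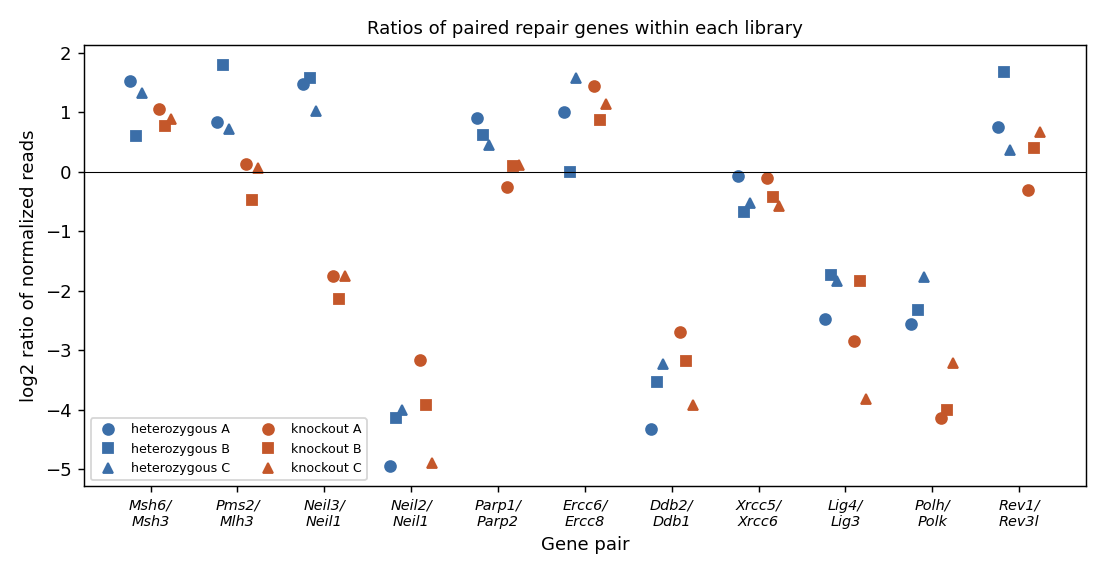
The log2 ratio of normalized reads of 11 gene pairs (y axis) in each library (circles, squares and triangles for A, B and C, blue heterozygous and orange knockout). Neil3/Neil1 lies at 1.02 to 1.58 in heterozygous and -2.15 to -1.75 in knockout libraries, and Pms2/Mlh3, Parp1/Parp2 and Polh/Polk are the other pairs without overlap.

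Other genes of the same pathways, 83 in number and 81 of them tested, held 19 lower and 1 higher call (24.7%, against 15.8% of all genes tested), with a median log2 difference of -0.42. In mismatch repair 6 of 17 fell: the clamp loader subunits Rfc3 (3.08-fold), Rfc4 and Rfc5 (2.56-fold), the ligase Lig1 (2.42-fold), the exonuclease Exo1 and the clamp Pcna. Most genes of that list also act in replication, and Rfc1, Rfc2, Rpa1, Rpa2, Rpa3 and Pold1 to Pold4 were not called. In base excision 6 of 16 fell and Parp3 rose. The largest fall was that of Tdg, the thymine and uracil glycosylase that also takes part in DNA demethylation, from 2241, 2554 and 1559 normalized reads to 246, 232 and 371 (7.48-fold, limma adjusted p = 0.000886). The flap nuclease gene Fen1 fell 3.23-fold and Tdp1, which clears trapped topoisomerase, 2.05-fold.

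In nucleotide excision 1 of 19 other genes fell, the ubiquitin ligase subunit Rbx1 (1.70-fold). In end joining 2 of 14 fell, Polq, the polymerase of alternative end joining (3.30-fold), and Tdp2 (2.15-fold). In translesion synthesis 4 of 15 fell, among them Usp1 (1.70-fold), which removes ubiquitin from PCNA, Atad5 (2.00-fold), which unloads PCNA, and Mad2l2 (1.69-fold), a subunit of polymerase zeta. Without heterozygous A, heterozygous B, knockout A or knockout B the count of these other genes that fell was 5, 3, 9 or 4 in place of 19.

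**Figure D4:**
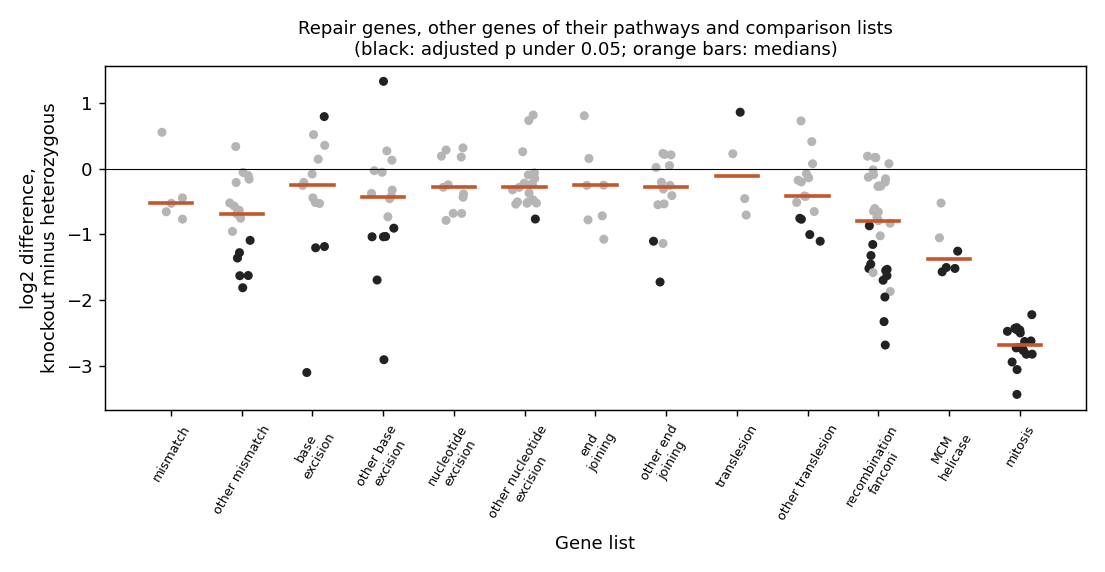
Log2 differences (knockout minus heterozygous, y axis) of the repair genes, of other genes of their pathways and of 3 comparison lists; points are genes, black where the adjusted p is under 0.05, and orange bars are medians. Medians lie between -0.53 and -0.11 for the 5 pathways, at -0.79 for recombination and Fanconi genes, -1.38 for MCM helicase genes and -2.67 for mitosis genes.

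Set beside neighbouring gene groups, the 40 repair genes had a median nearer to 0. Of 33 homologous recombination and Fanconi anemia genes 12 fell and none rose (36.4%, median log2 difference -0.79), with the smallest p for the resection factor Rbbp8 (3.24-fold) and for Rad51ap1 (5.01-fold). Of the 6 MCM helicase genes 4 fell (median -1.38), with the smallest p for Mcm7 (2.38-fold) and Mcm3 (2.86-fold), and of 18 mitosis genes all 18 (median -2.67). No test was made between lists, which share libraries and were listed with earlier results of these data known. In the mean over its members relative to the heterozygous mean, base excision stood at -0.13, 0.30 and -0.17 in heterozygous and -0.36, -0.57 and -0.38 in knockout A, B and C, and nucleotide excision at 0.03, 0.13 and -0.16 against -0.31, -0.18 and -0.20. End joining stood at 0.06, 0.07 and -0.13 against -0.35, -0.22 and -0.34. The knockout libraries thus lay below all heterozygous libraries for these 3 pathways. The nearest values were -0.17 and -0.36 for base excision, -0.16 and -0.18 for nucleotide excision and -0.13 and -0.22 for end joining. Of all single genes tested 20.2% were lower without overlap, and no such share was determined for list means. For base excision the separation rested on Neil3. Without it knockout A stood at -0.146 and heterozygous C at -0.154, and the groups overlapped. End joining overlapped without Lig4 (knockout C at -0.099, heterozygous C at -0.103). Nucleotide excision stayed separate without Ercc2, but by a narrow gap (-0.129 in knockout B against -0.125 in heterozygous C). Leaving out its other members was not examined, so the separation is not shown to hold without them. These means without the member that differed most were chosen after seeing the data. Mismatch repair (heterozygous C at -0.21, knockout C at -0.12) and translesion synthesis (-0.19 to 0.10 against -0.06 to 0.02) overlapped.

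**Figure D5:**
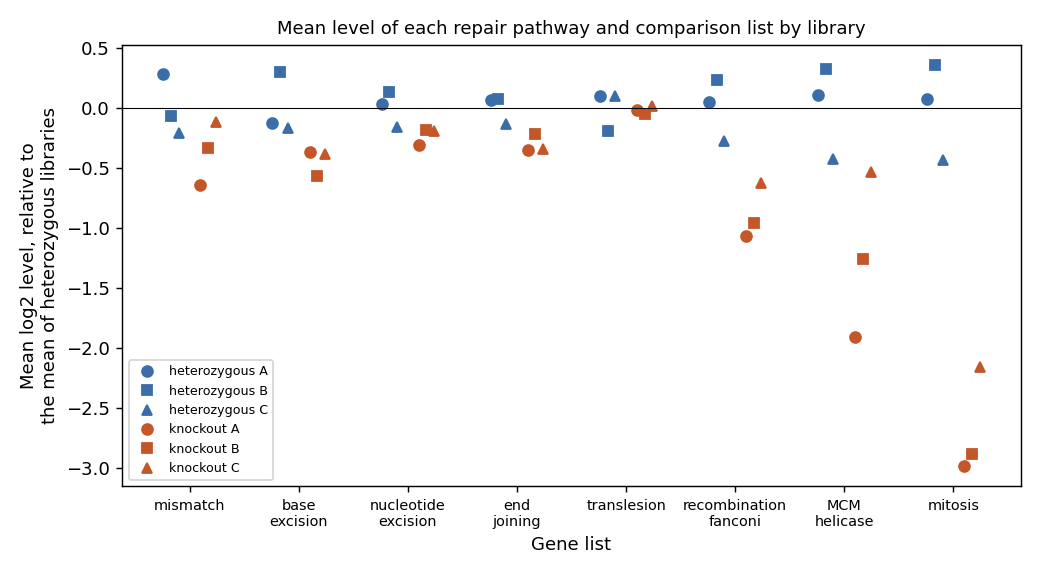
Mean log2 level of the members of each repair pathway and of 3 comparison lists (y axis, relative to the mean of the 3 heterozygous libraries) in each library, with circles, squares and triangles for A, B and C, blue heterozygous and orange knockout. Among knockout libraries the MCM helicase list spreads from -1.91 (A) to -0.54 (C), while the 5 repair pathways stay between -0.65 and 0.30 in all 6 libraries.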

How the data were processed

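Libraries were made with SMART-Seq v4 and Nextera XT from at least 35 ng of RNA of at least 200000 sorted cells, per the labels' protocols. HISAT2, featureCounts from Subread, DESeq2 and GRCm38 are named in the submitters' processing notes, without versions. The deposited values are a signal: the authors divided read counts per gene by 1 size factor per library. All values were whole multiples of 1 step per library (100% within 0.001 reads), so reads were recovered. The authors' mean over libraries is a signal too. The deposited log2 fold changes and errors, the score columns (Wald statistic and weight) and the p-value columns are the authors' own.

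limma 3.58.1 with a mean-variance trend (R 4.3.3) was fitted to log2(value + 1) for 18227 genes with a mean of at least 10, two-sided and without covariates. P-values were adjusted by Benjamini-Hochberg over these genes, with a threshold of 0.05. A fold change is on the log2(value + 1) scale, which understates changes of low genes. Fits were checked on simulated data. edgeR 4.0.16 (quasi-likelihood) and DESeq2 1.42.0 on recovered reads, other pseudocounts and filters, a replicate block and leaving out each library were alternatives. Ratios were tested by exact permutation. Gene positions and exon lengths (union of annotated exons) came from GENCODE M21 on GRCm38, and promoter windows from RefSeq (GRCm38.p6). Figures used matplotlib 3.10.9.

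The 40 members, the lists and the pairs were chosen with earlier results of these data known. All members are named, with values in every library for called genes and the genes of the pairs; of the other pathway genes up to 3 called with the smallest p per pathway, and of each comparison list the 2 with the smallest p. Rfc4, Exo1, Pcna, Parp3, Pip4p1, and the values by library of Polb and Prkdc were added after their values were seen. Per the series' design text the libraries of a genotype are biological replicates, and pooling mice averages over animals. No library pair agreed within sampling noise. Results that need items withheld for evaluation are not reported here.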

Additional observations from a re-analysis of the deposited data

How the results depend on the processing

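The count of repair genes that fell (3) was 7 with DESeq2 and 5 with a mean of at least 50, and that of genes that rose (2) was 0 with the replicate block. Leaving out 1 library gave 1 to 6 lower and 0 to 2 higher genes. The mismatch count (0) was 1 with DESeq2 and with the mean of 50, and 0 to 1 with a library left out. The base excision count (4) was 1 to 4 with a library left out, 1 (Neil3) when that was knockout B, heterozygous A or heterozygous B. The nucleotide excision count (0) was 1 with DESeq2. The end joining count (0) was 1 with edgeR under TMM, DESeq2 size factors or upper-quartile scaling, 1 with a pseudocount of 5 or a mean of 50, 2 with DESeq2, and 0 to 2 with a library left out. The translesion count (1) was 0 with the replicate block and 0 to 1 with a library left out. Of the other pathway genes 11 fell with the replicate block in place of 19, and 3 to 20 with a library left out. The 1 that rose was 0 with edgeR under TMM or DESeq2 size factors, without the filter and with the replicate block, 2 with DESeq2, and 0 to 3 with a library left out. Recombination and Fanconi genes that fell were 2 to 13 and MCM genes 0 to 6 with a library left out, while all 18 mitosis genes fell in each case. Over all genes DESeq2 called 4452 in place of 2883, and 635 to 4019 were called with a library left out.

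Differences of genes that were not called changed sign with a library left out for Ung (-0.46 to 0.33), Ddb1 (-0.52 to 0.11), Xrcc4 (-0.013 to 0.33), Dclre1c (-0.47 to 0.0080) and Rev3l (-0.11 to 0.41), and for the ratios Neil2/Neil1 (-0.039 to 0.82), Ercc6/Ercc8 (-0.14 to 0.65) and Xrcc5/Xrcc6 (-0.071 to 0.24). No called gene changed sign in any of the 15 alternatives. Without the member that differed most, a choice made after seeing the data, the mean difference (knockout minus heterozygous, log2) was -0.22 in place of -0.44 for base excision (without Neil3), -0.17 in place of -0.30 for end joining (without Lig4) and -0.31 in place of -0.02 for translesion synthesis (without Polk). Library letters did not pair the samples: deviations from the group means of same-letter libraries correlated at -0.07, 0.02 and -0.10, and no library correlated best with its own letter. The causes of these shifts were not tested. With 3 libraries per genotype the 95% interval was narrowest for Polb (-0.92 to -0.11) and widest for Neil2 (-0.86 to 1.90), which limits the changes that could be detected.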
